A study of Mus musculus with 10 samples.

Results

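The 8 Schwann cell and myelin genes Mbp, Pmp22, Prx, Mag, Egr2, Ngfr, S100b and Cdh19 were followed in whole skin of mice with an altered Npy allele and of their wildtype siblings. They were chosen by name as genes of skin nerves, and all 8 were found among the 49671 gene IDs of the count files. RNA with poly(A) tails was sequenced from 5 homozygous mutants (NPYtet, genotype B6;129S4-Npytm2Rpa/J, labelled 3 female and 2 male) and from 5 wildtype siblings of that strain (WT, labelled 2 female and 3 male). All mice were 22 weeks old, each gave 1 library under its own mouse number, and the labels used here state no treatment. Both alleles of Npy are altered in every cell of an NPYtet mouse, so no skin cell type is singled out by the design. The design sets the mRNA of mutant skin against that of sibling skin.

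Schwann cells are the glia of peripheral nerves. Myelinating Schwann cells wrap single large axons in a compacted membrane sheath built from proteins such as MBP and PMP22, while non-myelinating (Remak) Schwann cells hold bundles of the thin sensory and sympathetic axons that are abundant in skin. The zinc finger factor EGR2, acting with SOX10, switches on the myelin programme, and the neurotrophin receptor NGFR is typical of immature and non-myelinating cells. In skin, such cells are a small part of the tissue, and several of the 8 genes are also made elsewhere: S100b in adipocytes and melanocytes, Egr2 in hair follicle cells and activated immune cells, and Pmp22 in fibroblasts and epithelia.

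Library totals ran from 23209405 (NPYtet replicate 5) to 53357695 reads (WT replicate 4). Npy itself was at 96.2 to 485 CPM (the read count over the TMM-scaled library size, in the usual CPM unit) in the 5 NPYtet libraries, against 0.094 to 2.86 CPM in the 5 WT libraries. NPYtet replicate 5 and WT replicate 2 stood apart, with scaling factors of 0.652 and 0.696 and, at an equal depth of 23209405 reads, 19953 and 20970 genes with a read, against 23511 to 25338 in the others. NPYtet replicate 1 is labelled female but held 2 reads of Xist and 1513 of the Y-linked gene Ddx3y, so every statement on sex below concerns labels. Labelled sex is also a term in the main genotype fit, so this label enters the genotype values as well.

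All 8 genes were detected in all 10 libraries, from 896 reads in total for Cdh19 to 47407 for Pmp22. Per kb of annotated exon, the mean level over the 10 libraries was highest for Pmp22 at 54.2 CPM per kb, followed by Egr2 at 23.7, Mbp at 9.52, Prx at 3.55, Ngfr at 3.47, S100b at 2.31, Mag at 0.729 and Cdh19 at 0.502 CPM per kb. Pmp22 stood above Egr2, Egr2 above Mbp, Mbp above Prx and S100b above Mag in 10 of 10 libraries. Prx was above Ngfr in 5 of 10 libraries and Mag above Cdh19 in 6 of 10, so the order within these pairs was not settled by the spread. The tissue label of the set was set beside other Schwann cell genes of unequal level. Drp2, the dystrophin relative that binds periaxin, was at 2.32 to 12.9 CPM, and Sox10, the lineage factor shared with melanocytes, at 4.01 to 9.31 CPM, while Sox2 averaged 0.520, Fabp7 0.641, Gfap 0.689 and Pllp 0.358 CPM over the 10 libraries and Pmp2 had 0 reads. Genes of the axon, whose cell bodies lie outside the skin, were sparse in part. The neurofilament genes Nefl, Nefm and Nefh did not exceed 0.215 CPM in any library. In whole tissue, fewer cells of a type and less RNA per cell cannot be told apart.

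None of the 8 genes passed the test between the genotypes after adjustment over all 18060 genes tested in edgeR, where 1 gene (Npy, 0.00554% of those tested) passed. DESeq2 and limma voom also called 0 of the 8 (against 0.194% and 0.0111% of all genes each tested). In each of the 8, the NPYtet and WT libraries overlapped; over all tested genes the groups did not overlap in 0.305%. Mag had an unadjusted p under 0.05, on the higher side (1 of 8 members, against 3.59% of all tested genes, made up of 1.46% higher and 2.14% lower in NPYtet). Of the log2 fold changes of NPYtet over WT, 4 of 8 were above 0, against 48.8% of all tested genes. Their median was 0.09, against -0.01 over all tested genes.

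**Figure D1:**
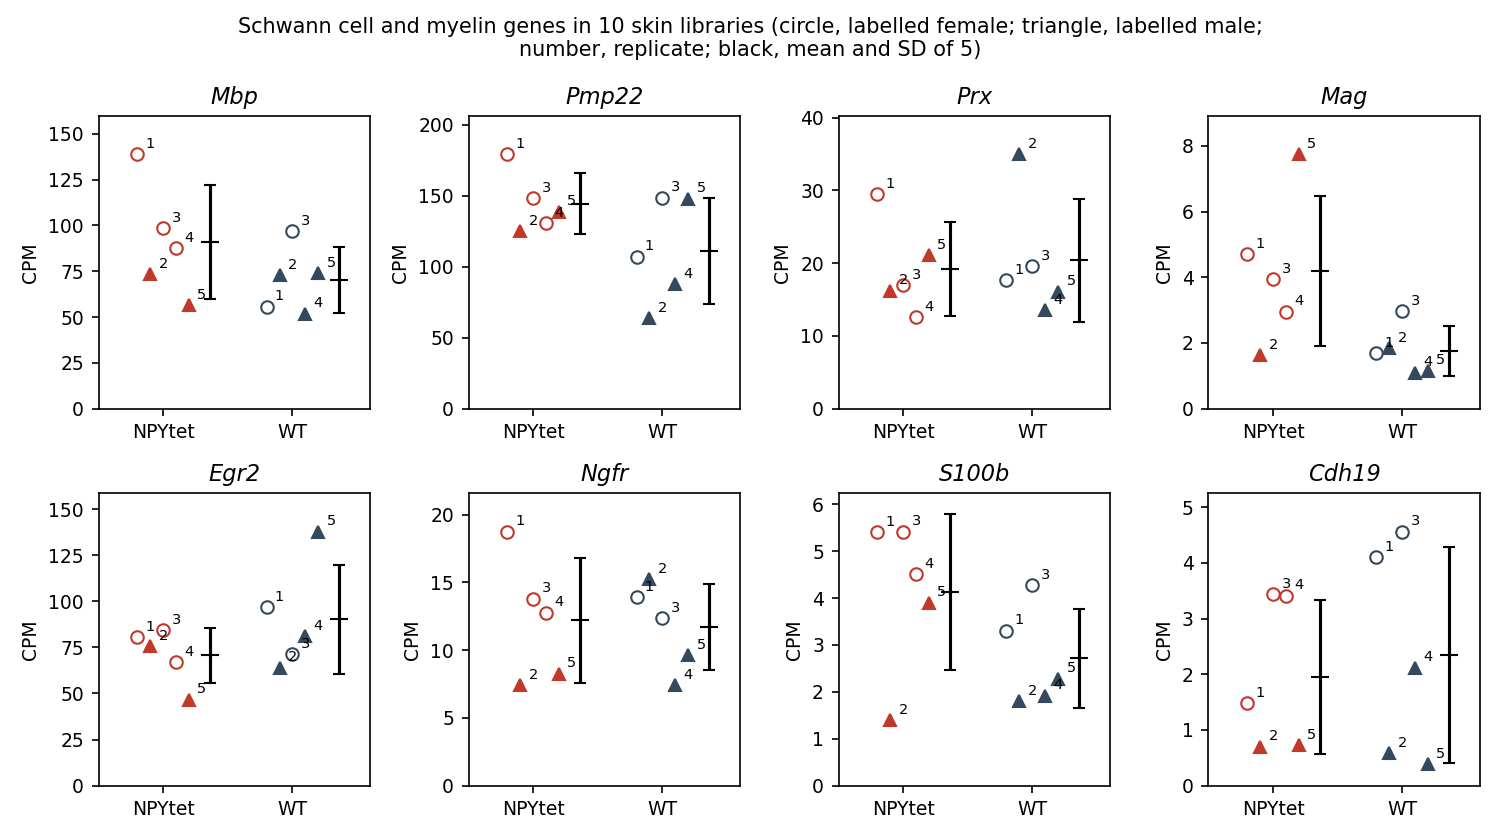
Level of each gene in CPM (y axis, starting at 0) in the NPYtet and WT libraries, with 1 point per mouse, its replicate number and its labelled sex, and black bars for the mean and SD of 5 libraries. The groups overlap in every panel; Mag has 3 NPYtet libraries at 3.94 to 7.74 CPM above the highest WT library at 2.96 CPM.

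Among the proteins of the sheath, Mbp encodes myelin basic protein, which holds the cytoplasmic faces of the wrapped membrane together. In mm10 it spans 82475146 to 82585637 of chromosome 18 (forward strand, ENSMUSG00000041607) and has 16 annotated transcripts, including forms made outside glia, which gene counts do not separate. Mbp was at 139, 73.3, 98.7, 87.5 and 56.6 CPM in NPYtet replicates 1 to 5, and at 55.6, 72.7, 96.8, 51.8 and 74.1 CPM in WT replicates 1 to 5. NPYtet replicate 1 was the highest library, and the other NPYtet libraries lay within or close to the WT range. The means were 91.0 ± 31.0 CPM in NPYtet and 70.2 ± 17.9 CPM in WT (SD, n = 5 each). The log2 difference was 0.24, with a standard error of 0.29 and a 95% interval of -0.38 to 0.86 (edgeR adjusted p = 0.999). It was -0.21 with the score of 22 hair genes as a covariate. These genes were at a summed 42.2 to 16500 CPM in NPYtet and 337 to 30200 CPM in WT. Their part in the Mbp values was not tested.

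Pmp22 encodes a membrane protein of compact myelin whose gene dosage is altered in the human neuropathy Charcot-Marie-Tooth disease type 1A. It spans 63128982 to 63159547 of chromosome 11 (forward strand, ENSMUSG00000018217). NPYtet replicates 1 to 5 had 179, 125, 148, 131 and 139 CPM, and WT replicates 1 to 5 had 107, 63.7, 149, 87.7 and 148 CPM. All 5 NPYtet libraries were above the WT median of 107 CPM, but WT replicates 3 and 5 were about as high as the second highest NPYtet library. The means were 144 ± 21.3 CPM in NPYtet and 111 ± 37.4 CPM in WT (SD, n = 5 each). The log2 difference was 0.33, with a standard error of 0.29 and a 95% interval of -0.28 to 0.94 (edgeR adjusted p = 0.999). Fibroblasts also make Pmp22, and 8 of 8 fibroblast genes had positive log2 fold changes (median 0.59, 0 called). Of the 8, 2 had an edgeR unadjusted p under 0.05, against 3.59% of all tested genes. The fibroblast genes were at a summed 11400 to 74000 CPM in NPYtet and 11700 to 60800 CPM in WT. Their part in the Pmp22 values was not tested.

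Prx encodes periaxin, a scaffold that ties the myelin sheath to the outer Schwann cell membrane and its basal lamina. It spans 27499324 to 27520214 of chromosome 7 (forward strand, ENSMUSG00000053198), and its exons share 300 bases with the antisense gene Gm15541, which held 133 reads in all libraries against 6847 of Prx. Prx was at 29.4, 16.2, 17.0, 12.5 and 21.1 CPM in NPYtet replicates 1 to 5, against 17.6, 35.0, 19.6, 13.6 and 16.1 CPM in WT replicates 1 to 5. The highest library was WT replicate 2, which had a low scaling factor, and the lowest was NPYtet replicate 4. The log2 fold change was -0.06 (SE 0.35, 95% interval -0.81 to 0.68, edgeR adjusted p = 0.999), the smallest in size of the 8.

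Mag encodes myelin-associated glycoprotein, an adhesion molecule of the inner Schwann cell membrane that faces the axon. The gene spans 30899176 to 30914873 of chromosome 7 (reverse strand, ENSMUSG00000036634). It was at 4.70, 1.62, 3.94, 2.95 and 7.74 CPM in NPYtet replicates 1 to 5 and at 1.68, 1.85, 2.96, 1.09 and 1.16 CPM in WT replicates 1 to 5. NPYtet replicate 5 was the highest library, NPYtet replicates 1 and 3 also lay above every WT library, and NPYtet replicate 2 lay within the WT range. The means were 4.19 ± 2.29 CPM in NPYtet and 1.75 ± 0.753 CPM in WT (SD, n = 5 each). Mag had the largest log2 fold change of the 8, 1.25 (SE 0.46, 95% interval 0.26 to 2.23, unadjusted p = 0.0165, edgeR adjusted p = 0.999), and ranked 226 by p among all tested genes. Without NPYtet replicate 5, the library with 9.26% mitochondrial reads and the fewest genes, the log2 fold change was 0.59, and with the number of genes at equal depth as a covariate it was 0.79. In limma voom it was 0.46.

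The stretches before the start sites of Mag, Prx and S100b are shown because Mag had the largest and Prx the smallest difference between the genotypes, and S100b was the member whose levels followed those of Mag most closely. They are RefSeq windows (GRCm38.p6) of 250 bases before to 50 bases after an annotated start, at chr7:30914814-30915113 on the reverse strand for Mag, chr7:27499074-27499373 on the forward strand for Prx and chr10:76253586-76253885 on the forward strand for S100b. Capitals mark a SOX-type core (ACAAAG or ACAATG, either strand) or an EGR-type site (GCGTGGGCG or GCGGGGGCG, either strand).
Mag: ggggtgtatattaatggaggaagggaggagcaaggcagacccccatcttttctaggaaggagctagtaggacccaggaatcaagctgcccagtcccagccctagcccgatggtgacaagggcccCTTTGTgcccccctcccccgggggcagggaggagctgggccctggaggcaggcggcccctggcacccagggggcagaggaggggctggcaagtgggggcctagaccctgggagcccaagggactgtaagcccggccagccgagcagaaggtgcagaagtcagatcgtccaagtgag
Prx: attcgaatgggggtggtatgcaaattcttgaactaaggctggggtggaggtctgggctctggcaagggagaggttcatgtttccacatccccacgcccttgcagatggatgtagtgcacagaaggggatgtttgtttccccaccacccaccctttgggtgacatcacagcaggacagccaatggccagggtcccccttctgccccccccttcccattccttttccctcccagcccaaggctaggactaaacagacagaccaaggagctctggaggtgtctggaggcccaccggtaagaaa
S100b: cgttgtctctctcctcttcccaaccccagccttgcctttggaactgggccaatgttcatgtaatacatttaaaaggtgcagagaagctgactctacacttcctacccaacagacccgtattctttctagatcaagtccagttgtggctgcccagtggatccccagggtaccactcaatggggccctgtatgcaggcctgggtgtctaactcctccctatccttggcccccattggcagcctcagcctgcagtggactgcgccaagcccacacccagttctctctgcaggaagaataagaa
The Mag window holds 1 match, the complement of ACAAAG, which begins 126 bases before the start, and the Prx and S100b windows hold none. Of the 15 RefSeq windows of the 6 members in that table, 2 hold a SOX-type core, both of Mag and covering the same bases, and 0 hold an EGR-type site. Over all 32851 windows the shares are 28.6% and 3.47%. A match is a run of letters and no match concerns only these windows.

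Egr2, the transcription factor of the set, was the second most abundant per kb. It spans 67535475 to 67542188 of chromosome 10 (forward strand, ENSMUSG00000037868). NPYtet replicates 1 to 5 had 80.4, 75.5, 84.3, 66.8 and 46.7 CPM, against 96.6, 64.0, 71.3, 81.0 and 138 CPM in WT replicates 1 to 5. WT replicate 5 was the highest and NPYtet replicate 5 the lowest, and 4 of 5 NPYtet libraries lay below the WT median of 81.0 CPM. The means were 70.7 ± 14.9 CPM in NPYtet and 90.1 ± 29.3 CPM in WT (SD, n = 5 each). The log2 difference was -0.37, with a standard error of 0.30 and a 95% interval of -1.02 to 0.27 (edgeR adjusted p = 0.999). Egr2 is also an immediate early gene, and the 9 other immediate early genes listed (among them Fos, Jun and Egr1) had log2 fold changes below 0 in 9 of 9, with a median of -0.33 and 0 called. Their summed level was 506 to 1170 CPM in NPYtet and 492 to 2090 CPM in WT, with WT replicates 5 and 2 the highest at 2090 and 1960 CPM, while Egr2 was lowest among the WT libraries in replicate 2. The part of these genes in the Egr2 values was not tested.

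Ngfr, the low-affinity neurotrophin receptor p75, spans 95568818 to 95587735 of chromosome 11 (reverse strand, ENSMUSG00000000120). It was at 18.8, 7.41, 13.8, 12.8 and 8.27 CPM in NPYtet replicates 1 to 5 and at 13.9, 15.2, 12.3, 7.40 and 9.65 CPM in WT replicates 1 to 5. The WT range lay almost entirely inside the NPYtet range. The means were 12.2 ± 4.59 CPM in NPYtet and 11.7 ± 3.18 CPM in WT (SD, n = 5 each), and the fitted value, which allows for labelled sex, had the other sign. The log2 fold change was -0.12 (SE 0.32, 95% interval -0.80 to 0.56, edgeR adjusted p = 0.999). It was 0.06 without the term for labelled sex, which takes NPYtet replicate 1 as female.

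S100b encodes a small calcium-binding protein used as a histological marker of Schwann cells. It spans 76253853 to 76261159 of chromosome 10 (forward strand, ENSMUSG00000033208). NPYtet replicates 1 to 5 had 5.41, 1.40, 5.42, 4.51 and 3.90 CPM, and WT replicates 1 to 5 had 3.31, 1.80, 4.28, 1.92 and 2.29 CPM. NPYtet replicates 1, 3 and 4 were above every WT library, while NPYtet replicate 2 was the lowest of all 10. The means were 4.13 ± 1.65 CPM in NPYtet and 2.72 ± 1.06 CPM in WT (SD, n = 5 each). The log2 difference was 0.41, with a standard error of 0.37 and a 95% interval of -0.37 to 1.19 (edgeR adjusted p = 0.999), and it was 0.12 without NPYtet replicate 5. Adipocytes also make S100b, and the summed level of 9 adipocyte genes (Adipoq, Plin1, Lep and others) was 2430 to 7480 CPM in NPYtet and 1390 to 4450 CPM in WT. All 9 adipocyte genes had positive log2 fold changes (median 0.81, 0 called). Of the 9, 4 had an edgeR unadjusted p under 0.05, against 3.59% of all tested genes. The part of the adipocyte genes in the S100b values was not tested.

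Cdh19, a cadherin known in rodents from Schwann cell precursors, was the least abundant member. It spans 110888326 to 110977584 of chromosome 1 (reverse strand, ENSMUSG00000047216). Its levels were 1.48, 0.700, 3.44, 3.41 and 0.728 CPM in NPYtet replicates 1 to 5, and 4.11, 0.582, 4.56, 2.12 and 0.386 CPM in WT replicates 1 to 5. Both groups held libraries below 1 CPM and above 3 CPM, so the spread within each genotype was far wider than the difference between them. The means were 1.95 ± 1.38 CPM in NPYtet and 2.35 ± 1.94 CPM in WT (SD, n = 5 each). The log2 difference was -0.60, with a standard error of 0.48 and a 95% interval of -1.64 to 0.43 (edgeR adjusted p = 0.999). It was -0.26 without the term for labelled sex.

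**Figure D2:**
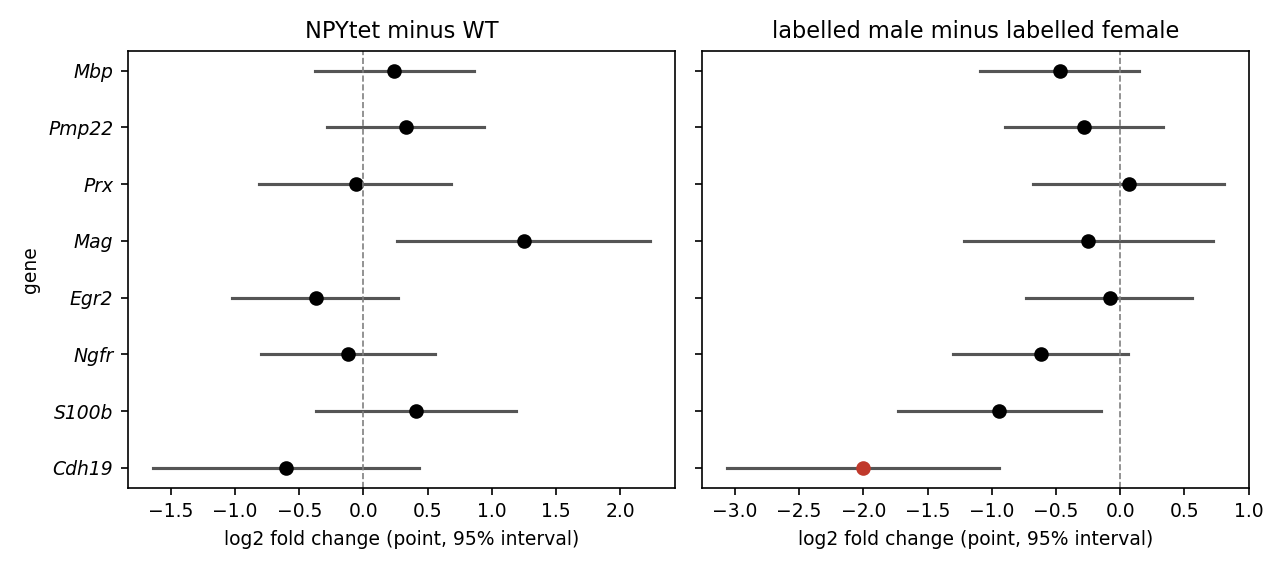
Log2 fold change (x axis) with its 95% interval for each gene (y axis), NPYtet minus WT on the left and labelled male minus labelled female on the right; a red point has an edgeR adjusted p under 0.05 over all tested genes. The genotype interval of Mag alone excludes 0 before adjustment, and Cdh19 at -2.0 is the 1 red point, in the comparison of sexes.

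Between the labelled sexes, Cdh19 was the member that passed the test, at 0.386 to 2.12 CPM in males and 1.48 to 4.56 CPM in females. Of the 8, 7 had negative log2 fold changes of male over female, against 9720 of all 18060 tested genes. Their median was -0.38, against -0.07 over all tested genes. The call was 1 of 8, against 2.48% of all tested genes, made up of 1.12% lower and 1.36% higher in males. Of the members, 2 of 8 had an unadjusted p under 0.05, close to the 24.6% of all tested genes, and the sexes overlapped in 8 of 8, while they did not overlap in 8.44% of all tested genes. Cdh19 was at 0.700 and 0.728 CPM in NPYtet males and at 0.582, 2.12 and 0.386 CPM in WT males, against 1.48, 3.44 and 3.41 CPM in NPYtet females and 4.11 and 4.56 CPM in WT females. WT replicate 4, labelled male, lay above NPYtet replicate 1, labelled female with Y-linked reads, so the order of the labelled sexes was not complete. NPYtet replicates 3 and 4 and WT replicates 1 and 3, the libraries high in Xist and without Ddx3y reads, were at 3.41 to 4.56 CPM. The other libraries, all with Ddx3y reads, were at 0.386 to 2.12 CPM, so by these reads the order was complete. The main fit used the labels. The log2 fold change was -2.0 (SE 0.50, 95% interval -3.06 to -0.94, edgeR adjusted p = 0.0493). It was -2.09 (edgeR adjusted p = 0.0381) without NPYtet replicate 1 and -2.5 (edgeR adjusted p = 0.0104) without WT replicate 4. Leaving out any of the other 8 libraries, one at a time, ended the call, with edgeR adjusted p up to 0.165. The adjusted p was 0.0526 in edgeR with DESeq2 size factors, 0.00197 in DESeq2 itself and 0.00305 in limma voom.

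Cdh19 was also set beside the number of genes read. The 4 libraries with the fewest genes at equal depth, NPYtet replicates 2 and 5 with 24091 and 19953 and WT replicates 2 and 5 with 20970 and 23511, are all labelled male and were the 4 below 1 CPM of Cdh19. In order of rising gene number, Cdh19 in these 4 was at 0.728 (NPYtet replicate 5), 0.582 (WT replicate 2), 0.386 (WT replicate 5) and 0.700 CPM (NPYtet replicate 2). The other 6 libraries had 24534 to 25338 genes. With the number of genes as a covariate, chosen after seeing the data, Cdh19 had a log2 fold change of -1.50 by sex (edgeR adjusted p = 0.346). With that covariate 11 genes were called by sex in all, against 448 without it. As the 4 libraries with the fewest genes are all labelled male, the parts of labelled sex and gene number cannot be told apart here.

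**Figure D3:**
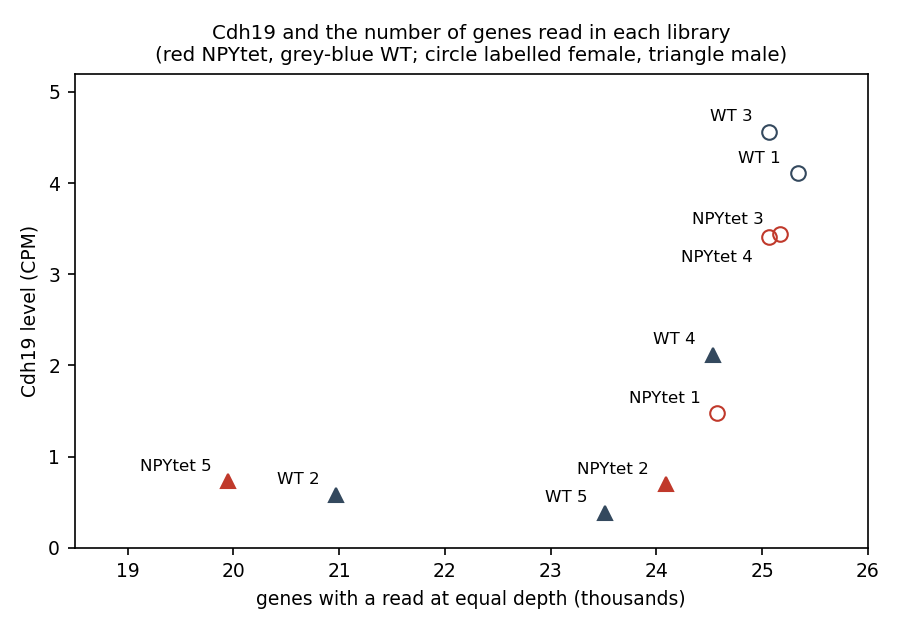
Cdh19 level in CPM (y axis) against the number of genes with a read when each library is reduced to 23209405 reads (x axis), 1 point per library with its genotype by colour and labelled sex by shape. The 4 libraries under 1 CPM are the 4 with the fewest genes, from 19953 to 24091.

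S100b was at 1.40 to 3.90 CPM in males and 3.31 to 5.42 CPM in females, at a log2 difference of -0.94 (SE 0.37, unadjusted p = 0.0222, edgeR adjusted p = 0.141), and NPYtet replicate 5 was the 1 male within the female range. Ngfr was at 7.40 to 15.2 CPM in males and 12.3 to 18.8 CPM in females (log2 fold change -0.62, SE 0.32, edgeR adjusted p = 0.242), where WT replicate 2 was the male within the female range. Mbp had -0.47, Pmp22 -0.28, Mag -0.25, Egr2 -0.08 and Prx 0.07 on the same log2 scale, none past the threshold (edgeR adjusted p = 0.32 to 0.918). In limma voom S100b, Ngfr and Mag passed by sex, at log2 values of -1.25, -0.63 and -1.0, which with Cdh19 made 4 of 8 members, where voom called 31.3% of all tested genes. DESeq2 called 1 of 8 by sex, against 12.9% of all genes it tested. The genotype difference did not pass a test for a difference between the sexes in any of the 8 (log2 values -0.66 for Ngfr to 1.04 for Mag). In that test 0 of 18060 genes passed in edgeR, 294 (1.63%) had an unadjusted p under 0.05, against 0 of 8 members, and DESeq2 called 3. Within males the Mag difference was 1.77 (SE 0.65, edgeR adjusted p = 0.975), from 2 NPYtet and 3 WT libraries, and within females 0.73 (SE 0.66).

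The wider Schwann cell and nerve programme was read from 6 lists of companion genes. Of their 67 tested genes, edgeR and limma voom called 0 by genotype, and DESeq2 called 1 (Gfra3, against 0.194% of all genes it tested). Leaving out the low-count filter gave 1 edgeR call (Tubb3) among 77 nerve genes then tested, where 409 genes were called in all. The share of all genes called in that setting is not given here, so the 1 call is not read as a result about nerve genes. Of 16 tested genes of the myelin sheath, 11 had positive and 5 negative log2 fold changes (median 0.15, 0 called). Of these 16, 1 had an unadjusted p under 0.05, against 3.59% of all tested genes. Pllp, the proteolipid plasmolipin, and Ugt8a, the enzyme that makes the myelin lipid galactosylceramide, had 1.33 (SE 0.61) and 1.04 (SE 0.52), from levels of 0.183 to 1.06 CPM of Pllp in NPYtet and 0.0497 to 0.306 CPM in WT. Without NPYtet replicate 5 these values were 0.83 for Pllp and 0.51 for Ugt8a, and in limma voom 0.31 and 0.40. Pmp2, a lipid carrier of peripheral myelin, had 0 reads in every library, and each library's 0 is compatible with up to 3 reads, counting error only.

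Of 12 tested regulators, 5 were positive and 7 negative (median -0.11, 0 called). An unadjusted p under 0.05 was found for 0 of the 12, against 3.59% of all tested genes. Nab2, the corepressor that partners EGR2, was at 23.8 to 31.7 CPM in NPYtet and 28.4 to 55.6 CPM in WT, at a log2 difference of -0.52 (SE 0.29, edgeR adjusted p = 0.999), and Zeb2, a factor needed for myelination, had 0.59 (SE 0.35). Sox10, the partner of EGR2, is in this list and had -0.32 (SE 0.34). Of 8 tested genes of the Schwann cell basal lamina and its receptors, 5 were positive (median 0.24, 0 called); Lamb1 and Itga6, a laminin chain and an integrin chain, had -0.55 (SE 0.46) and 0.44 (SE 0.38).

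The 12 genes of non-myelinating Schwann cells were divided 5 to 7 (median -0.08, 0 called in edgeR and 1 in DESeq2). An edgeR unadjusted p under 0.05 was found for 2 of the 12, against 3.59% of all tested genes. Gfra3, the artemin receptor of Schwann cells and sensory axons, was at 2.48, 0.954, 1.68, 0.893 and 0.529 CPM in NPYtet replicates 1 to 5, against 5.47, 1.85, 3.90, 4.09 and 2.64 CPM in WT replicates 1 to 5. NPYtet replicate 1 was the 1 mutant library above the lowest WT library. The log2 fold change of Gfra3 was -1.69 (SE 0.43, unadjusted p = 0.0014, edgeR adjusted p = 0.868; DESeq2 adjusted p = 0.0351). The 7 melanocyte genes (Tyr, Dct and others) had log2 fold changes below 0 in 7 of 7, with a median of -3.58 and 0 called. Of the 7, 6 had an edgeR unadjusted p under 0.05, against 3.59% of all tested genes. The groups did not overlap in 4 of the 7, against 0.305% of all tested genes. The summed level of the melanocyte genes was 11 to 22.4 CPM in NPYtet and 30.2 to 389 CPM in WT. Their part in the Gfra3 values was not tested. Scn7a, a sodium channel of non-myelinating Schwann cells, went the other way at 0.99 (SE 0.38, unadjusted p = 0.0217, edgeR adjusted p = 0.999), with 15.7 to 43.3 CPM in NPYtet and 4.39 to 30.7 CPM in WT, and was at 0.57 in limma voom.

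**Figure D4:**
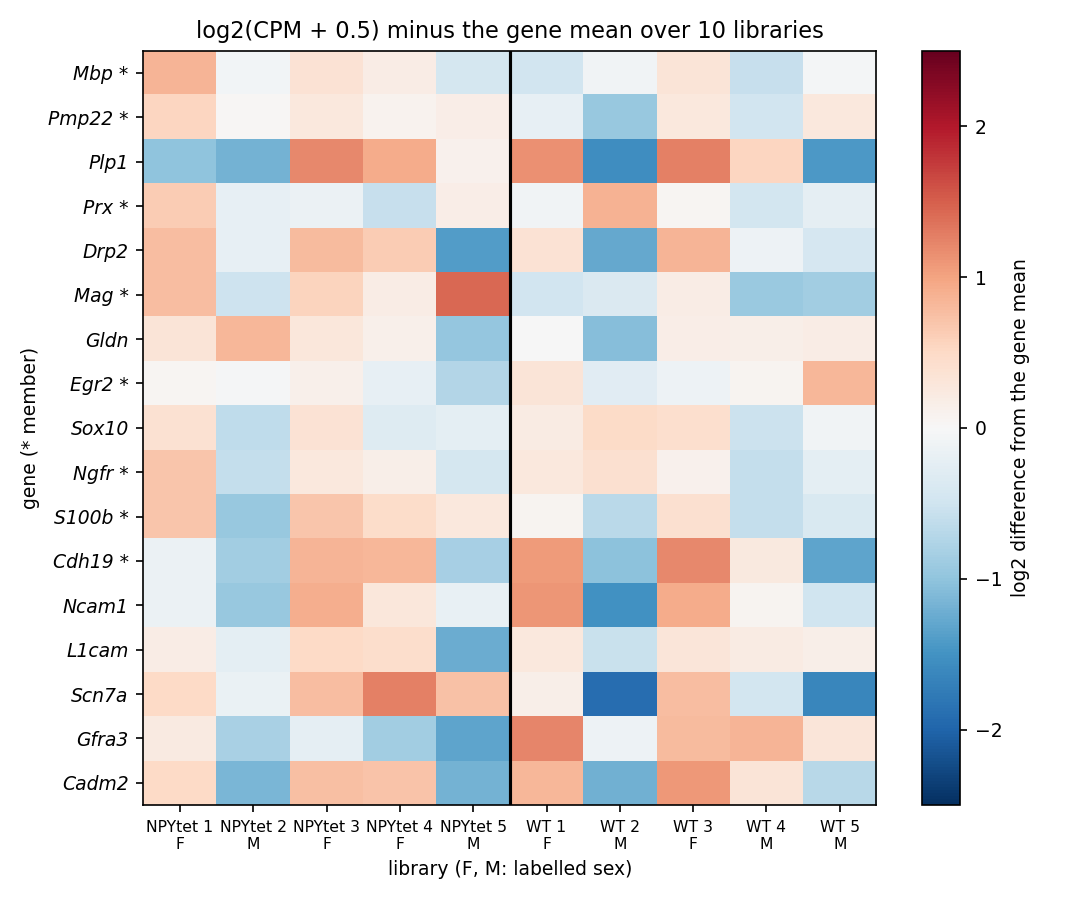
Log2 difference from each gene's mean over the 10 libraries (colour) for the 8 members, marked with a star, and 9 further Schwann cell genes (rows), by library with NPYtet left of WT (columns). NPYtet replicate 1 is high in Mbp, NPYtet replicate 5 in Mag, and Gfra3 is lower in NPYtet than in most WT libraries.

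Ligands and receptors of the neurotrophin family, among them partners of NGFR, were divided 5 positive to 8 negative over 13 tested (median -0.23, 0 called). Of the 13, 1 had an unadjusted p under 0.05, against 3.59% of all tested genes. Sorcs2, a co-receptor that binds NGFR, had -0.97 (SE 0.38), and Ntf3, the ligand neurotrophin 3, had 0.67 (SE 0.34). With the hair score as a covariate Sorcs2 was at -0.50. Of 15 axon genes 6 were abundant enough to test, and 4 of these were positive (median 0.31). In edgeR 0 axon genes were called with the filter on low counts and 1, Tubb3, without it, where 409 genes were called in all. Here too the share called over all genes without the filter is not given. Tubb3, a neuronal tubulin, had -2.65 (SE 0.92, edgeR adjusted p = 0.999), at 0.229 to 27.4 CPM in NPYtet and 1.69 to 81.6 CPM in WT. The 5 libraries highest in Tubb3, NPYtet replicate 5 and WT replicates 1, 2, 4 and 5, were also those with the highest summed level of 22 hair shaft and root sheath genes, at 9680 to 30200 CPM against 42.2 to 1690 CPM in the rest. With the score of those genes as a covariate the log2 value of Tubb3 was -0.57, and it was -1.18 without WT replicate 1. The score itself ran from -6.02 to 2.95 in NPYtet and from -2.72 to 3.76 in WT. The part of the hair genes in the Tubb3 and Sorcs2 values was not tested. Gap43, a growth protein of regenerating axons, had 0.61 (SE 0.44).

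**Figure D5:**
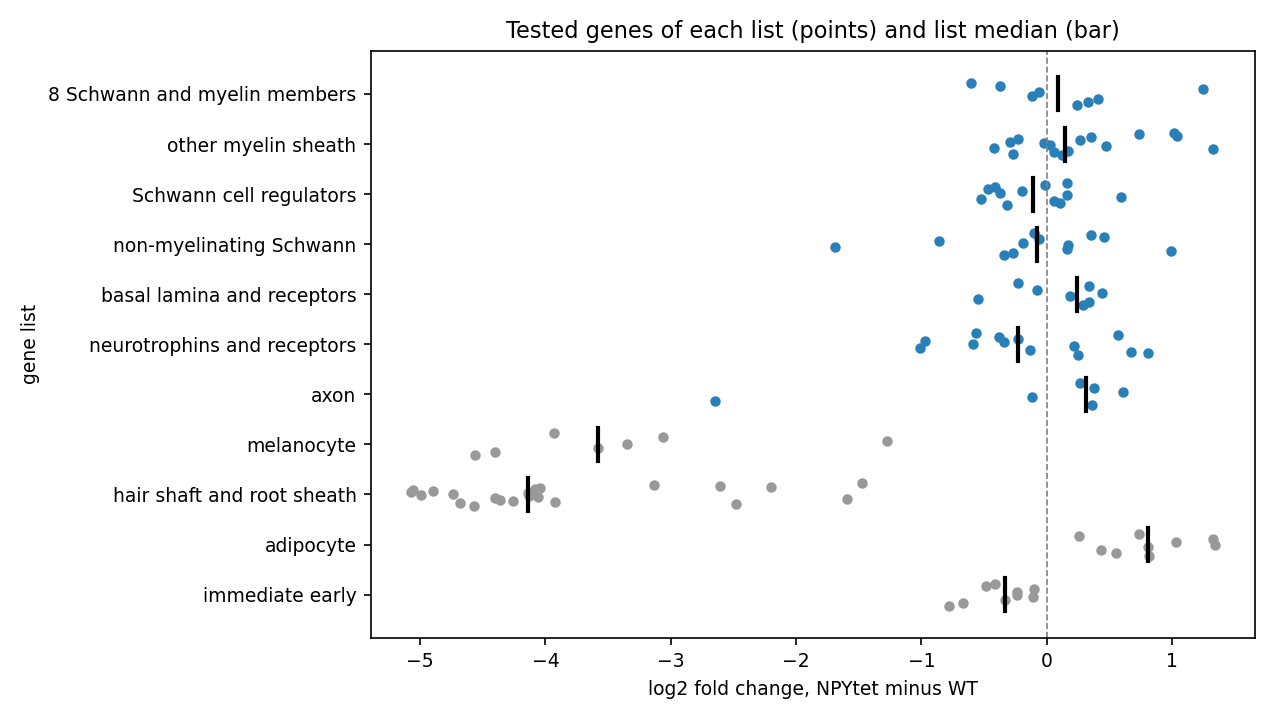
Log2 fold changes of NPYtet over WT (x axis) of the tested genes of each list (points, y axis) and the list medians (black bars), with nerve lists in blue and lists of other cell types in grey. The nerve lists lie around 0, with medians from -0.23 to 0.31, while the hair list lies at a median of -4.13.

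By sex, edgeR called 3 of the 67 tested genes of the nerve lists, against 2.48% of all tested genes, DESeq2 called 12 of 67 against 12.9%, and limma voom 25 of 67 against 31.3%. The 3 called in edgeR are named because they were called. Cadm2, a cell adhesion molecule of the non-myelinating list, was lower in males at 0.317 to 1.85 CPM against 2.16 to 3.48 CPM in females (log2 fold change -2.22, SE 0.51, edgeR adjusted p = 0.0379). Gjb1, the gap junction protein connexin 32, was higher in males at 2.07 to 14.3 CPM against 0.435 to 0.878 CPM in females (3.42, SE 0.53, edgeR adjusted p = 0.00751). Nrg1, a growth factor for Schwann cells, was higher in males at 0.397 to 21.2 CPM against 0.369 to 2.06 CPM in females (3.67, SE 0.83, edgeR adjusted p = 0.037). Both Gjb1 and Nrg1 are also made by epithelial cells. The number of genes read was not set against these 3 genes.

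The 8 genes were also compared with each other over the libraries. Over the 28 pairs and 10 libraries, Pearson's r of log2(CPM + 0.5) was positive in 22, and no pair passed after adjustment over the 28 by permutation tests of 100000 draws. The closest by r was S100b with Mag, at r = 0.74 (permutation p = 0.016, adjusted p = 0.275) and Spearman's rho = 0.72 (permutation p = 0.0233, adjusted p = 0.212); r was 0.78 without the 2 libraries farthest from the median of S100b and 0.68 after removing the genotype means. The closest by rank was Mbp with Pmp22, at rho = 0.83 (permutation p = 0.00468, adjusted p = 0.131) and r = 0.59 (permutation p = 0.0734, adjusted p = 0.275), and here r was 0.31 without the 2 libraries farthest in Mbp. Egr2 and Mag ran in opposite directions at r = -0.65 (permutation p = 0.041, adjusted p = 0.275) and rho = -0.49 (permutation p = 0.153, adjusted p = 0.428), with r = -0.46 without the 2 libraries farthest in Mag. Depth and scaling are shared by all genes of a library.

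Of 15170 other genes with a mean of at least 1 CPM, those most like Mbp over the 10 libraries included Igfbp3 (r = 0.939) and Padi2 (r = 0.930). For Mag they were AW112010 (r = 0.961), Lce1c (r = 0.957) and Hpn (r = 0.953), and for S100b Rnase6 (r = 0.968), P2rx2 (r = 0.954) and Tmem150b (r = 0.947). Pmp22 was most like Ctss, Cpq and Rnf130 (r = 0.951, 0.951 and 0.948), Prx most like Kcnn1 (r = 0.897) and Ngfr most like Gm9776 (r = 0.947). Egr2 was most like Liph (r = 0.933) and Cdh19 most like Dnajc12 (r = 0.974). These values are among the highest of 15170 and describe likeness over 10 libraries only. None of the genes named here is in the Schwann cell or nerve lists.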

How the data were processed

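Poly(A) RNA of whole skin was sequenced from 10 mice, 1 library each. Per the labels' protocols, libraries were strand-specific and paired-end. The values deposited are raw read counts, 1 file per library, with Ensembl gene IDs. Per the submitters' processing notes, the tools were STAR 2.5.2, Trimmomatic 0.36, FastQC 0.11.8, bcl2fastq and DESeq2 1.30.1, with the build mm10. The strand setting and annotation used in counting were not given in the sources used here, and reads of a gene and an antisense partner may be mixed.

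Of 49671 IDs, 49412 matched GENCODE M21 (GRCm38, the assembly of mm10), which gave symbols, positions and union exon lengths; the other 259 took 0.019% of reads. The robust quasi-likelihood test of edgeR 4.0.16 (R 4.3.3) was fitted to labelled sex and genotype, after TMM scaling and the filterByExpr filter by genotype (minimum count 10, minimum total 15). P-values were adjusted by Benjamini and Hochberg over 18060 genes at a threshold of 0.05. Fold changes are NPYtet minus WT or male minus female, on the log2 scale. The genotype by sex test used the product of both terms. The fit was run on counts simulated from a pooled profile with changes set by genotype only. Those counts held no sex effect and no libraries with few genes at equal depth, so they do not test the fit under these conditions. In 20 pairs of libraries of 1 group, chi-square per degree of freedom was at least 27.9, so no pair agreed within sampling noise.

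The 8 members and the 16 companion lists (167 of 168 names matched) were chosen with earlier results of these data known. Named companion genes are those of smallest genotype p in each list; those named for sex or for their library pattern, with Sox10, Drp2, Sox2, Fabp7, Gfap, the neurofilament genes and Pmp2, were named after their values were seen. The alternatives included DESeq2 1.42.0 and limma 3.58.1. Some genes of the lists are not reported here by name.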

Additional observations from a re-analysis of the deposited data

Results flagged for a closer look

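Prx in WT replicate 2, at 35.0 CPM, stood apart from the other 4 WT libraries, which lay between 13.6 and 19.6 CPM. The gap to the nearest of them was 0.718 of the group's range, above Dixon's critical value of 0.71 for 5 samples. It was the 1 such library among 18 groups examined (the 8 genes and Npy in both genotypes), and chance flags about 1 group in 20. WT replicate 2 also had a scaling factor of 0.696 and 20970 genes with a read at equal depth; their part was not tested.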

How the results depend on the processing

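No member passed the threshold by genotype in any of 24 alternatives, and 182 of 192 values kept their sign. Mag ranged from 0.46 to 1.55, Egr2 from -0.53 to -0.17 and Cdh19 from -0.78 to -0.03. These values turned sign under an alternative. Ngfr was 0.01 in limma voom, 0.06 without the sex term, 0.03 with a replicate block and no sex term, -0.24 to 0.05 leaving out each library (above 0 without WT replicate 2), and 0.09 without NPYtet replicate 5 and WT replicate 2. Prx was -0.26 to 0.19 leaving out each library (0.19 without WT replicate 2, 0.04 without NPYtet replicate 2 or NPYtet replicate 4), and 0.12 without NPYtet replicate 5 and WT replicate 2. With the hair score as a covariate Mbp was -0.21 and Itga6 -0.05. Gap43 was -0.20 in voom and Itga6 -0.13 to 0.72 leaving out each library (-0.13 without NPYtet replicate 2). By sex, Prx was -0.41 without scaling factors, -0.05 in voom, -0.19 to 0.31 leaving out each library (-0.19 without WT replicate 2, -0.04 without NPYtet replicate 4) and -0.61 with genes read as a covariate. Egr2 by sex was 0.27 in voom, -0.28 to 0.14 leaving out each library (0.14 without NPYtet replicate 5) and 0.36 with that covariate, and Mag was -0.91 to 0.04 (0.04 without WT replicate 3). In voom S100b, Ngfr and Mag passed by sex (limma adjusted p = 0.00877, 0.0427 and 0.0421). The Cdh19 sex call also ended with DESeq2 size factors (edgeR adjusted p = 0.0526), without scaling factors (0.064) and with a mean of at least 1 CPM required (0.0519). The causes were not tested.

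Genotype called 1 gene, but 409 with no filter on low counts, 35 in DESeq2, 2 in voom and 0 with NPYtet replicates 1 and 5 and WT replicate 2 all left out, where Npy was at 7.45 (edgeR adjusted p = 0.133). Tubb3 was among those called with no filter (edgeR adjusted p = 7.85e-09). Leaving out each library gave 1 to 8, the 8 without WT replicate 3. Sex called 448 genes, but 217 without scaling factors (63 higher and 154 lower in males, against 246 and 202), 2380 with no filter, 2316 in DESeq2, 5648 in voom and 11 with genes read as a covariate. Leaving out each library gave 58 to 2725 (58 without WT replicate 3, 89 without NPYtet replicate 4, 97 without NPYtet replicate 3, 209 without WT replicate 2, 269 without WT replicate 5 and 2725 without WT replicate 4). The genotype by sex test called 0, but 217 with no filter, 3 in DESeq2 and, leaving out each library, 0 to 108, the 108 without WT replicate 3. The 2 genotypes share replicate numbers 1 to 5, but same-numbered libraries deviated together with correlations from -0.26 to 0.64, and 1 of 5 matched best with its own number, so the numbers do not pair the mice. The replicate block changed no call of a member, and 1 gene was called with it. Over the 10 libraries Cdh19 had 896 reads and Mag 990, with coefficients of variation of the level of 74.4% and 69.4%, and Pllp had 113 reads; how far depth limits these genes was not tested.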

Other observations

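Other cell types that neighbour nerves in skin were read from lists of 6 or 7 genes, with 0 called by genotype in each. Of 7 T cell genes 4 had positive log2 fold changes (median 0.22), of 7 macrophage genes 5 (median 0.04), and of 6 endothelial and mural cell genes 4 (median 0.19). Of 7 skeletal muscle genes 3 were positive (median -0.08), and of 7 keratinocyte genes 2 (median -0.12). These medians lie beside one of 0.09 for the 8 Schwann cell and myelin genes and -0.01 for all tested genes.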
